A study of Mus musculus with 8 samples.

Results

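The potassium channel genes of the mouse kidney after ischemia-reperfusion (I/R) were compared between mice with a myeloid FoxO1 knockout and controls. Members were all gene symbols of the deposited table that start with Kcn and have at least 80 counts in total over the 8 libraries. Of 98 symbols that start with Kcn, 56 met the total, out of 25239 genes in the table. The 42 others include 11 that stood at 0 in all libraries. The members nearest to the limit were Kcna6 and Kcnu1 with totals of 89 and 90 counts, and the nearest symbols left out were Kcnh5 and Kcnj14 with totals of 66 and 55 counts.

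The study asked what FoxO1 does in macrophages during I/R-induced acute kidney injury. The knockout group has 4 libraries, labelled as myeloid-specific FoxO1-knockout; per the labels' protocols these mice were Lyz2-CreERT2 FoxO1flox/flox and received tamoxifen at 75 mg per kg on 5 successive days from 8 to 10 weeks of age. The control group has 4 libraries with the genotype label WT. The protocol entries of all 8 libraries give the same age and tamoxifen dose. Whether the control mice themselves carried the Cre or received tamoxifen is not stated in the sources used here. All 8 libraries are kidney RNA after removal of the right kidney and 35 minutes of clamping of the left renal vessels under pentobarbital, taken from tissue digested with collagenase, and no uninjured kidney is among them. Lyz2 drives the Cre in macrophages and neutrophils, and the design does not target tubule cells. The time from reperfusion to collection is not given in the sources used here. Libraries are called knockout 1 to 4 and control 1 to 4 after their titles. No label says that they came from separate animals, so what the p-values weigh is spread among libraries, in part perhaps technical.

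Potassium channels let potassium ions leave or enter cells along their gradient. In the nephron they set the membrane voltage that drives other transporters, recycle potassium back to the urine for the sodium-potassium-chloride cotransporter of the thick ascending limb, recycle it across the basolateral membrane for the sodium pump, and secrete it in the distal nephron. The family is built of inward rectifiers (Kcnj), two-pore-domain channels (Kcnk) and voltage-gated pore subunits (Kcna, Kcnb, Kcnc, Kcnd, Kcnf, Kcng, Kcnh, Kcnq and Kcns). It also holds channels opened by calcium or sodium (Kcnma, Kcnn and Kcnt), with Kcnu grouped beside them by symbol alone. Accessory subunits (Kcne, Kcnab, Kcnip and Kcnmb) tune pore subunits.

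Libraries held 29044405 to 34738914 counts in the knockout and 32627652 to 35530421 counts in controls. Foxo1 stood at 41.4, 41.0, 42.9 and 39.3 CPM (counts scaled to library size with TMM factors) in knockouts 1 to 4, against 34.5, 33.4, 33.0 and 33.9 CPM in controls 1 to 4 (log2 fold change 0.29 ± 0.09 SE, adjusted p = 0.0647 by edgeR). Other kidney cells express Foxo1, so this level of the whole tissue does not check the deletion in myeloid cells. Lyz2 stood at 0.367 CPM in knockout 3, against 25.4 to 46.9 CPM in the other knockouts, and at 2.28 CPM in control 1, against 27.3 to 50.4 CPM in the other controls. Results below were also computed without those 2 libraries.

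Potassium channel genes were more often higher than lower in the knockout. At an edgeR adjusted p under 0.05 over the 15000 genes tested, 12 of the 56 members rose (21.4%) and 2 fell (3.57%), which leaves 42 without a call. Of all genes tested this rule called 6.45% as higher and 6.28% as lower, 12.7% in all. DESeq2 called 21 members as higher and 3 as lower, against 9.57% and 8.73% of all genes with an adjusted p there. The median log2 fold change of the 56 members was 0.76, with 45 above 0, against a median of -0.01 over all genes tested. In 17 members (30.4%) every knockout library lay above every control library and in 3 (5.36%) every knockout library lay below, against 11.1% and 10.6% of all genes tested and 21.7% of them in either direction. All 56 members passed the filter on low counts. The total that defines members ignores the group, but some reached it only through their knockout counts. Among them were Kcna1, Kcns1, Kcng1, Kcnj13, Kcnn3 and Kcnu1. These genes are counted among the members above 0, and their membership is not independent of that direction. Kcna1, Kcns1 and Kcnu1 are also among the 12 that rose. Without control 1 and knockout 3 together, 8 members rose and 2 fell. Leaving out 1 library at a time gave 8 to 11 members that rose, and 0 that fell without knockout 2 or knockout 4. The genes that rose were Kcnj1, Kcnj10, Kcnj16, Kcnq1, Kcne1, Kcne4, Kcna1, Kcns1, Kcng2, Kcnt1, Kcnn1 and Kcnu1, and those that fell were Kcnk5 and Kcnh1.

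**Figure D1:**
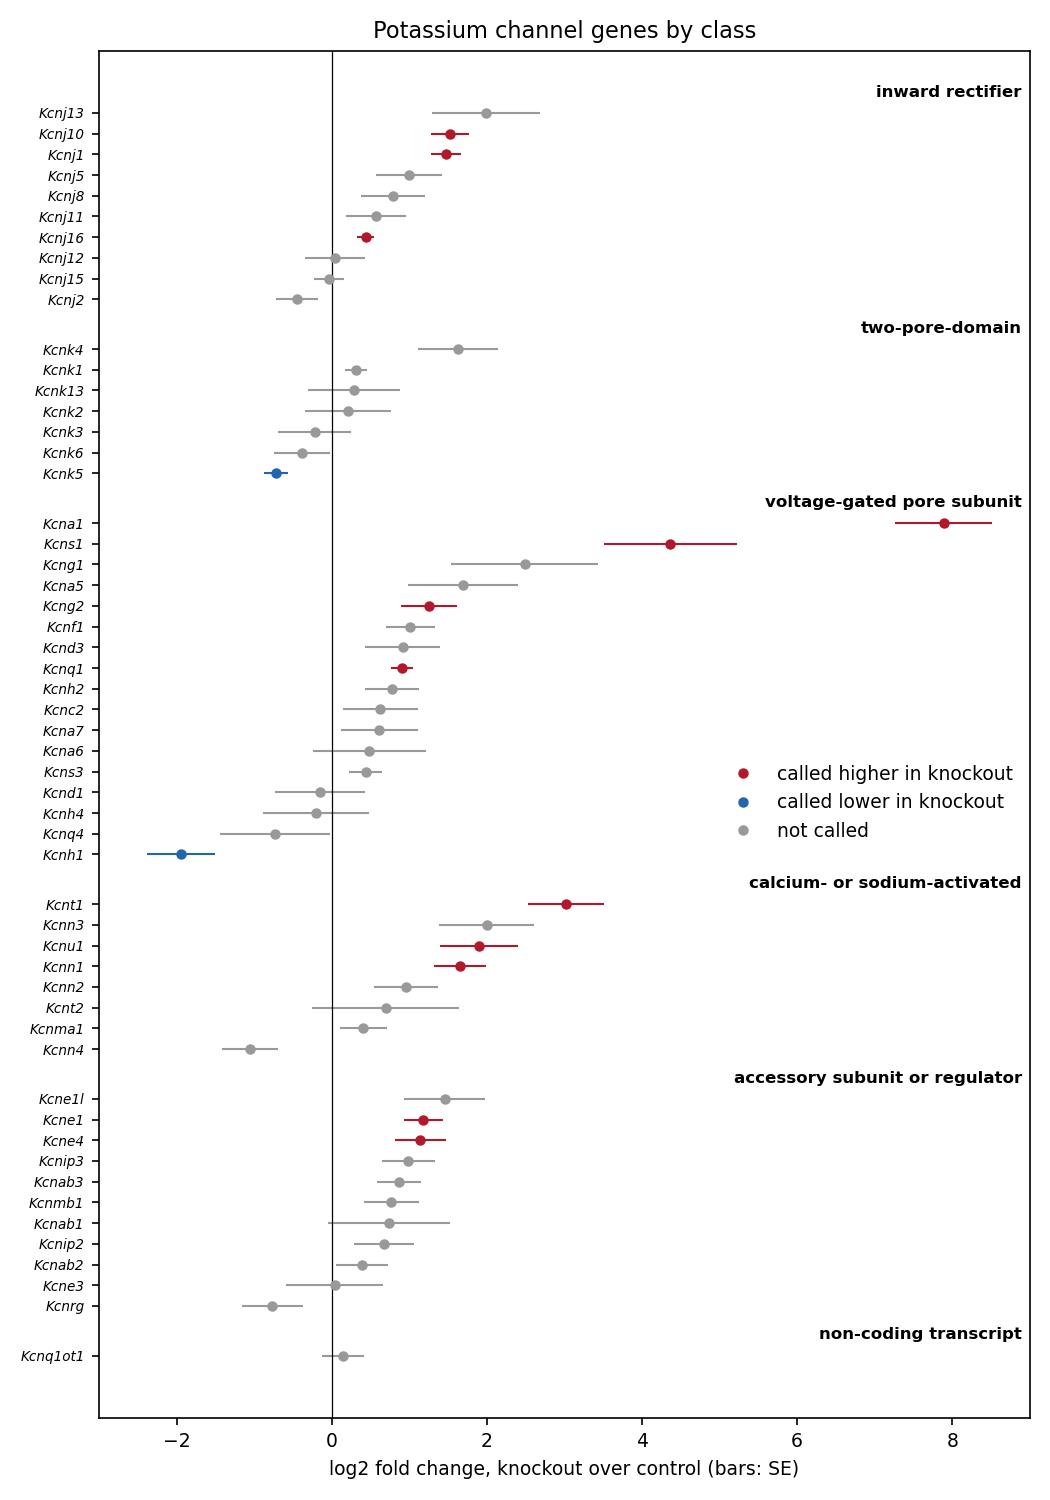
The log2 fold change of knockout over control (x axis) of the members, all but 2, ordered within each class, with bars for the standard error; red and blue points passed the test as higher or lower and grey points did not. Kcna1 at 7.89 stands farthest to the right and Kcnh1 at -1.95 farthest to the left, and most points lie right of 0.

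Markers of several nephron segments also separated the groups, while those of the proximal tubule did not. In the thick ascending limb list 4 of 6 markers rose and none fell, and their summed level was 6260 to 7308 CPM in knockouts, against 2154 to 3720 CPM in controls. In the distal convoluted tubule list 3 of 4 rose and none fell (766 to 1182 CPM in knockouts, 240 to 459 CPM in controls). Principal cell markers summed to 1156 to 2074 CPM in knockouts and 308 to 1033 CPM in controls (4 of 5 rose), and intercalated cell markers to 271 to 356 CPM and 102 to 138 CPM in the same order (5 of 5 rose). Proximal tubule markers overlapped between the groups, at 4536 to 6396 CPM in knockouts and 1888 to 5464 CPM in controls (3 of 7 rose). Of podocyte markers 4 of 5 rose, at 511 to 560 CPM in knockouts and 336 to 431 CPM in controls. Endothelial markers overlapped, at 260 to 321 CPM in knockouts and 124 to 262 CPM in controls (2 of 5 rose). Fibroblast markers overlapped as well, at 185 to 272 CPM and 65.8 to 214 CPM in the same order (0 of 3 rose). Injured tubule genes summed to 812 to 1046 CPM in knockouts, against 3219 to 5619 CPM in controls (6 of 7 fell), and immediate early genes, which can respond to tissue handling, to 181 to 197 CPM in knockouts, against 352 to 555 CPM in controls (6 of 7 fell). None of these lists had a marker at 0 in all libraries. The part of any of them in the potassium channel results was not tested, and in bulk tissue fewer cells of a type and less RNA per cell cannot be told apart.

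Promoter sequence was matched by symbol for 40 of the 56 members (RefSeq, GRCm38.p6, a different build from the mm39 named for the counts). The 250 bases before the start site are shown for the 3 inward rectifiers that rose and for Kcnk5, the abundant member that fell. These are the well-expressed members of those kinds with a RefSeq entry. Capitals mark a match to the HNF1 half-site GTTAAT.
Kcnj1: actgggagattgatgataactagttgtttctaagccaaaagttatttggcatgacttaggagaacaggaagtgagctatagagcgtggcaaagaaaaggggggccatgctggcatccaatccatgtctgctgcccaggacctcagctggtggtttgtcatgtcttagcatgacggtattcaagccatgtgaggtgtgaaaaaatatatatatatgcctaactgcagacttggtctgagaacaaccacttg
Kcnj10: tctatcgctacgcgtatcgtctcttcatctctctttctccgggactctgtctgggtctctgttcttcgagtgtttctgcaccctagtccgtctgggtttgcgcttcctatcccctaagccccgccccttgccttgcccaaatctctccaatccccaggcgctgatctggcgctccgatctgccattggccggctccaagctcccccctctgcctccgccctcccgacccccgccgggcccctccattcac
Kcnj16: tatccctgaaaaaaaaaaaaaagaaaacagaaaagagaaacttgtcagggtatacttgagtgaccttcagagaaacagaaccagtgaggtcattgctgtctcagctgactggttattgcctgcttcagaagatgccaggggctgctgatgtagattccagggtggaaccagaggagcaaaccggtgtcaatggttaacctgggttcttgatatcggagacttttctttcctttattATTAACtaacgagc
Kcnk5: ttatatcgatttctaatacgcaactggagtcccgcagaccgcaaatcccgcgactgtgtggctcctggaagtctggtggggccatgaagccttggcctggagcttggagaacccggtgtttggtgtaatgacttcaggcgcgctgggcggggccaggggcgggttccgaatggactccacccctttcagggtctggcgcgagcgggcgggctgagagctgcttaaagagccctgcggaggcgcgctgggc
The windows lie at chr9:32393735-32393984 (plus strand) for Kcnj1, chr1:172340960-172341209 (plus strand) for Kcnj10, chr11:110967783-110968032 (plus strand) for the most upstream of 4 annotated starts of Kcnj16, and chr14:20181783-20182032 (minus strand) for Kcnk5. They differ in composition: the windows of Kcnj10 and Kcnk5 hold 62.0% and 62.8% G or C with 17 and 19 CG dinucleotides, and those of Kcnj1 and Kcnj16 hold 44.8% and 42.8% with 2 and 3. The forkhead core GTAAACA, a core that FoxO factors bind, was searched on both strands in the 58 windows of the 40 members and was found in 0 of them, against 3.17% of 32851 windows of the same length over all genes. GTTAAT on either strand was in 3 member windows (Kcnj16, Kcnab1 and Kcns3), against 6.43% of all windows. These letters are a description of short windows and say nothing of what binds there or farther away.

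Levels between genes were compared as CPM per kb of the deposited gene length. Over the 8 libraries 7 members stood over 10 CPM per kb, 9 between 1 and 10, 33 between 0.1 and 1, and 7 at 0.1 or less. The order of mean levels was Kcnj15 (101 CPM per kb), Kcnj16 (81.4), Kcnj1 (58.4), Kcnk1 (50.2), Kcnk5 (30.2), Kcnj10 (17.7), Kcnq1 (11.7) and Kcne1 (9.34). The first 6 together made up 85.2% ± 1.22 of the summed level per kb of all members in knockouts and 88.7% ± 1.26 in controls (SD, n = 4 each). The order of the first members differed in its spacing between groups. In knockouts Kcnj16 and Kcnj1 averaged 93.7 ± 4.58 and 85.9 ± 5.46 CPM per kb, and the SD of Kcnj15, 26.6 CPM per kb, spans the gaps between these 3. In controls Kcnj15, Kcnj16 and Kcnj1 averaged 102 ± 15.0, 69.1 ± 5.31 and 30.9 ± 8.92 CPM per kb and kept apart from each other by more than their SDs. The share of Kcnj1 in the summed level was 19.1% ± 1.80 in knockouts and 9.26% ± 2.30 in controls, that of Kcnj10 was 5.83% ± 0.644 and 2.72% ± 0.817, and that of Kcnk5 was 5.06% ± 0.424 and 11.4% ± 2.53, in the same order. The summed level of all members was 435 to 473 CPM per kb in knockouts and 291 to 359 CPM per kb in controls.

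**Figure D2:**
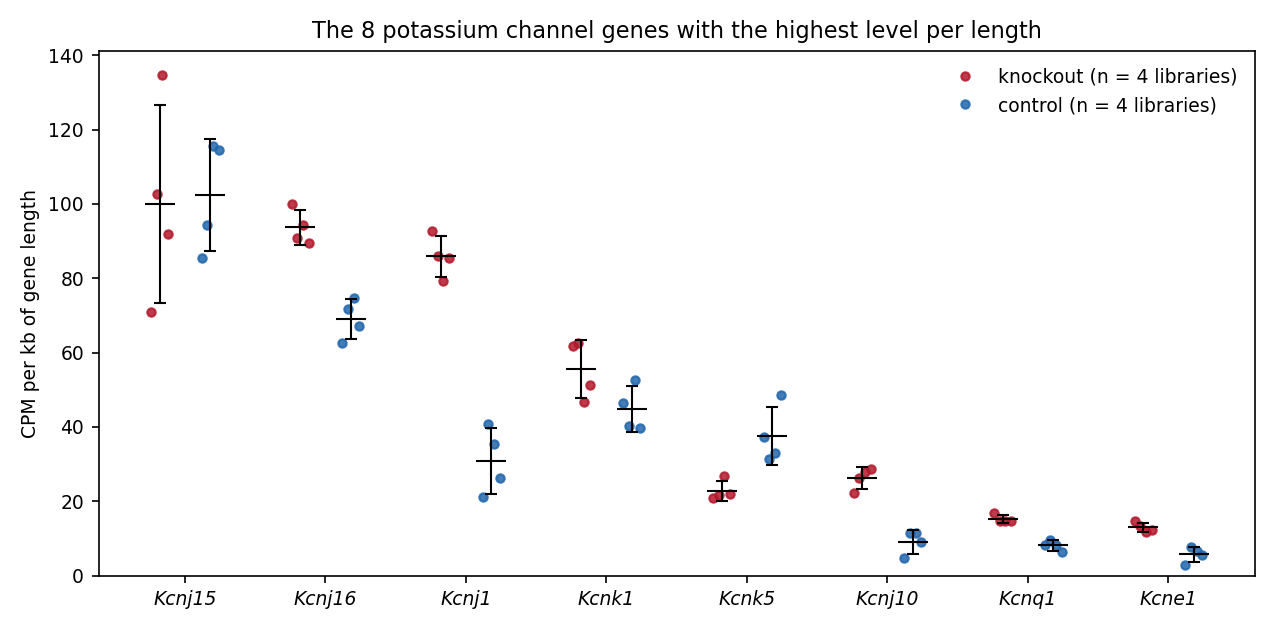
CPM per kb of gene length (y axis) in each library for the 8 most abundant members, with black bars for the mean and SD of 4 libraries. Red knockout points lie above all blue control points for Kcnj16, Kcnj1, Kcnj10, Kcnq1 and Kcne1 and below them for Kcnk5, while Kcnj15 and Kcnk1 overlap.

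Of the 10 inward rectifiers, 3 rose and none fell. Kcnj1 encodes ROMK, the channel of the apical membrane in the thick ascending limb and the potassium-secreting distal nephron; loss of it causes Bartter syndrome in humans. Its level was 303, 281, 259 and 279 CPM in knockouts 1 to 4, against 68.7, 134, 116 and 85.8 CPM in controls 1 to 4. The lowest knockout stood well above the highest control, and control 1 was the lowest of all. The log2 fold change was 1.48 (SE 0.19, edgeR adjusted p = 0.00215), a 2.78-fold higher level. Kcnj1 kept its call in each of 15 alternative settings.

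Kcnj10 encodes Kir4.1, a basolateral channel of the distal convoluted tubule, and Kcnj16 encodes Kir5.1, which forms mixed channels with Kir4.1. Kcnj10 stood at 120, 142, 151 and 156 CPM in knockouts 1 to 4 and at 25.3, 62.5, 61.5 and 48.4 CPM in controls 1 to 4. The groups did not overlap, and control 1 was again the lowest (log2 fold change 1.52 ± 0.25 SE, adjusted p = 0.00515 by edgeR). Kcnj16 stood at 402, 366, 380 and 361 CPM in knockouts 1 to 4 and at 252, 289, 301 and 270 CPM in controls 1 to 4. Its groups did not overlap either, but its log2 difference was 0.44 (SE 0.11, edgeR adjusted p = 0.0268), and the call was lost without knockout 2, 3 or 4 or control 3 or 4 (adjusted p up to 0.0683) and without control 1 and knockout 3 together (adjusted p = 0.102).

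The partners therefore stood in a different proportion in the 2 groups. Kcnj10 over Kcnj16, as a ratio of CPM per kb, was 0.222, 0.289, 0.297 and 0.321 in knockouts 1 to 4 and 0.0746, 0.161, 0.152 and 0.133 in controls 1 to 4. Every knockout ratio was above every control ratio. Kcnj15, which encodes Kir4.2, a proximal tubule channel that also pairs with Kir5.1, was the most abundant member and did not pass. It stood at 388, 561, 736 and 502 CPM in knockouts 1 to 4 and at 466, 515, 631 and 626 CPM in controls 1 to 4 (log2 fold change -0.03 ± 0.20 SE, adjusted p = 0.930 by edgeR). Knockouts 1 and 3 were the lowest and the highest of the 8 libraries. The ratio of Kcnj10 to Kcnj15 was 0.272 ± 0.0508 in knockouts and 0.0885 ± 0.0289 in controls (SD, n = 4 each), with no overlap. Against Slc12a3, a distal convoluted tubule marker, the ratio of Kcnj10 was 0.131 to 0.187 in knockouts and 0.0762 to 0.133 in controls, and the groups overlapped. Kcnj16 over Kcnj15 also overlapped, at 0.700 to 1.41 in knockouts and 0.586 to 0.761 in controls. These ratios were chosen after the values were seen and were not tested.

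**Figure D3:**
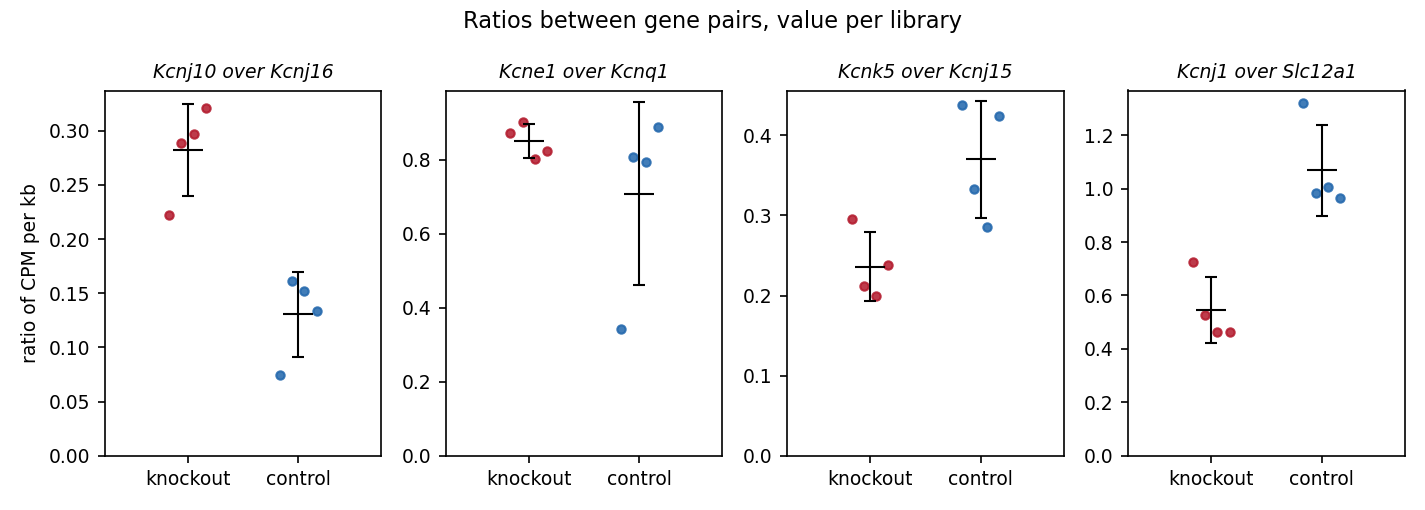
Ratios of CPM per kb (y axes, each from 0) in each library for 4 pairs of genes, with black bars for the mean and SD of 4 libraries; red is knockout and blue is control. Kcnj10 over Kcnj16 is higher in all 4 knockouts and Kcnj1 over Slc12a1 is lower in all 4, while Kcne1 over Kcnq1 and Kcnk5 over Kcnj15 overlap between the groups.

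The remaining inward rectifiers did not pass. Kcnj8, the pore of the vascular ATP-sensitive channel, averaged 7.24 ± 2.39 CPM in knockouts and 4.18 ± 2.52 CPM in controls (SD, n = 4 each), and Kcnj11, the pore of the ATP-sensitive channel of beta cells and muscle, 1.51 ± 0.449 and 1.01 ± 0.438 CPM. Kcnj5 and Kcnj13 lay higher in every knockout than in every control, with log2 fold changes of 0.99 and 1.99 (edgeR adjusted p = 0.151 and 0.0876) at mean levels of 1.53 and 0.610 CPM in knockouts. Kcnj2 and Kcnj12 had log2 fold changes of -0.45 and 0.04. Exons of Kcnj13 share 623 bases with the protein-coding gene Gigyf2 on the opposite strand in GENCODE M21, so its counts may hold reads of that gene. These 6 inward rectifiers were named after their values were seen.

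Among 7 two-pore-domain genes, which encode background channels, 1 fell and none rose. Kcnk5 encodes TASK-2, an alkali-activated channel of the proximal tubule that takes part in bicarbonate recovery. Kcnk5 stood at 70.6, 73.1, 90.1 and 73.6 CPM in knockouts 1 to 4 and at 126, 105, 111 and 163 CPM in controls 1 to 4. All knockouts were lower than all controls, at a log2 change of -0.72 with SE 0.15 (edgeR adjusted p = 0.0160). The call was lost without knockout 2 (adjusted p = 0.0543) or knockout 4 (0.0551). Over the same libraries the summed proximal tubule markers named above overlapped between the groups, and Kcnj15 had no difference past the threshold. The part of proximal tubule cells in the Kcnk5 result was not tested. Per library the ratio of Kcnk5 to Kcnj15 was 0.236 ± 0.0431 in knockouts and 0.370 ± 0.0735 in controls, with overlapping ranges. The ratio of Kcnk5 to Kcnk1 was 0.422 ± 0.108 in knockouts and 0.858 ± 0.257 in controls (SD, n = 4 each), without overlap. Both ratios were chosen after the values were seen and were not tested.

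Kcnk1, which encodes the weakly conducting channel TWIK-1, stood at 142, 144, 108 and 118 CPM in knockouts 1 to 4 and at 107, 93.0, 122 and 91.5 CPM in controls 1 to 4. The groups overlapped (log2 fold change 0.31 ± 0.14 SE, adjusted p = 0.170 by edgeR). The other 5 genes of this class did not pass; their log2 fold changes ran from -0.38 (Kcnk6) to 1.63 (Kcnk4). The exons of Kcnk4 share 587 bases with Catsperz on the same strand in GENCODE M21, so its counts may hold reads of that gene.

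Of 19 voltage-gated pore subunits, 4 rose and 1 fell. Kcnq1 and its accessory subunit Kcne1, which together form a slow voltage-gated channel found in heart, inner ear and the apical membrane of the proximal tubule, rose together. Kcnq1 stood at 51.0, 44.7, 44.2 and 44.7 CPM in knockouts 1 to 4 and at 25.2, 29.2, 25.4 and 18.9 CPM in controls 1 to 4. The groups did not overlap (log2 fold change 0.90 ± 0.14 SE, adjusted p = 0.00400 by edgeR).

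Kcne1 stood at 46.9, 42.6, 37.4 and 38.8 CPM in knockouts 1 to 4 and at 9.11, 24.9, 21.3 and 17.8 CPM in controls 1 to 4. Control 1 was the lowest, and no control reached the lowest knockout (log2 fold change 1.18 ± 0.26 SE, adjusted p = 0.0165 by edgeR). The ratio of Kcne1 to Kcnq1 per kb was 0.850 ± 0.0456 in knockouts and 0.709 ± 0.248 in controls (SD, n = 4 each), and it overlapped between the groups; control 1 alone stood at 0.342, against 0.795 to 0.890 in the other controls. Kcnq1 and Kcne1 kept their calls in all 15 alternative settings. Exons of Kcnq1 share 121 bases with its antisense transcript Kcnq1ot1 in GENCODE M21, and the library kit (NEBNext Ultra RNA) is not strand-specific; Kcnq1ot1 itself averaged 5.53 ± 1.57 CPM in knockouts and 5.01 ± 1.21 CPM in controls (edgeR adjusted p = 0.766).

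Kcna1 encodes Kv1.1, an apical channel of the distal convoluted tubule; a mutation of the gene causes magnesium loss in humans, and the channel is better known from neurons. Kcna1 had 433, 301, 186 and 311 counts in knockouts 1 to 4, which is 15.6, 8.72, 5.25 and 9.22 CPM, against 2, 0, 3 and 0 counts in controls 1 to 4. It was close to absent in each control and present in each knockout. From the summed counts of 1231 and 5, scaled to library size, it was 251-fold higher in the knockout, with an exact binomial 95% interval of 107 to 774 that covers counting error only and is too narrow if both mates of a pair were counted (edgeR adjusted p = 2.74e-04). The fitted log2 fold change of 7.89 (SE 0.63) ran from 7.53 without control 2 to 8.65 without control 3. The 5 neuron markers summed to 1.53 to 2.99 CPM in knockouts and 1.32 to 3.92 CPM in controls, and of the 3 that were tested none passed. The part of neurons in the Kcna1 result was not tested. In the gene order of GRCm38.p6, Kcna1 lies between Kcna5 and Kcna6, neither of which passed (log2 fold changes 1.69 and 0.48, edgeR adjusted p = 0.145 and 0.706).

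**Figure D4:**
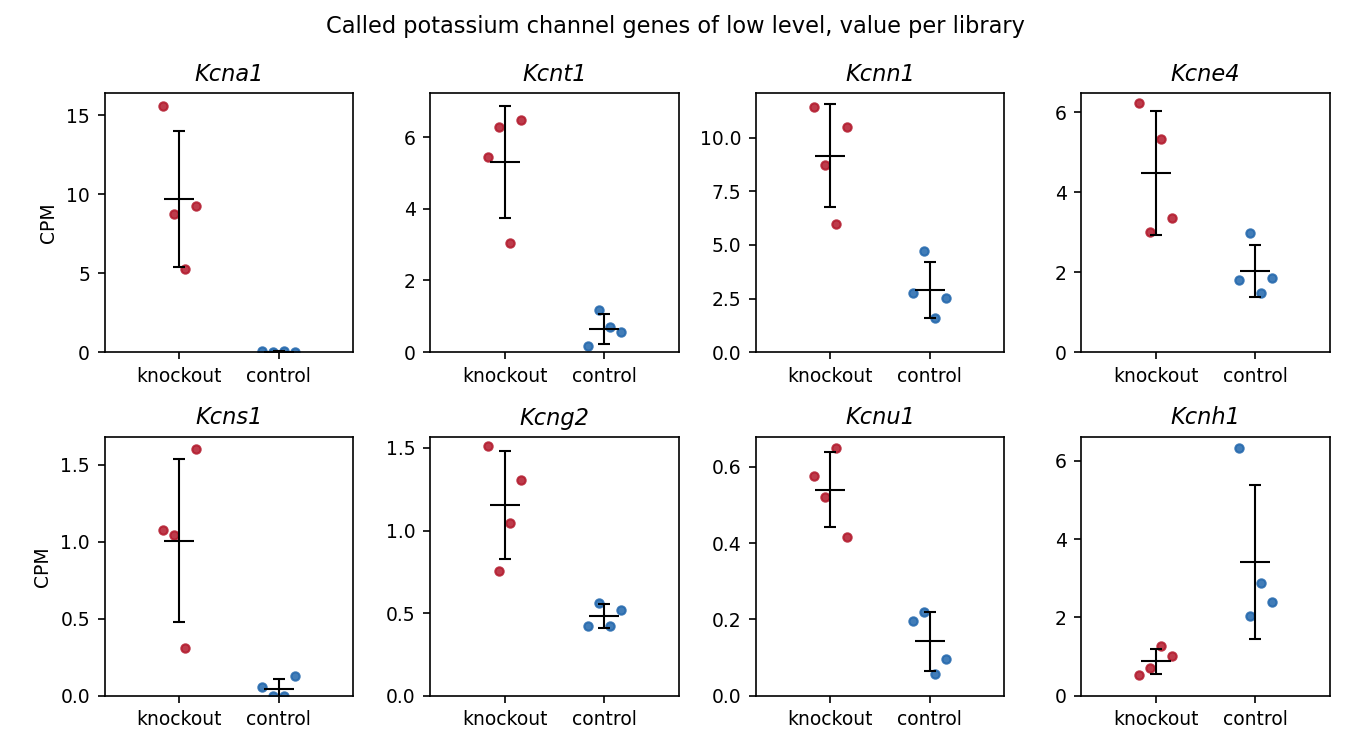
CPM (y axes, each from 0) in each knockout library (red) and control library (blue) of the 8 called members of low level, with black bars for the mean and SD of 4 libraries. Kcna1 is near 0 in all controls; of the 8, Kcnh1 is lower in the knockouts, with control 1 as the highest point.

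Kcns1 and Kcng2 encode silent subunits, which form no channel of their own and modify others. Kcns1 had 30, 36, 11 and 54 counts in knockouts 1 to 4 and 2, 0, 0 and 4 counts in controls 1 to 4. Every knockout was above every control, and from the summed counts of 131 and 6 the level was 22.3-fold higher (exact binomial 95% interval 9.95 to 61.7, counting error only; edgeR adjusted p = 0.0109). Its fitted log2 fold change of 4.37 was 5.46 without control 4. Kcns1, like Kcna1, met the total for members through its knockout counts, so its membership is not independent of its direction. Kcng2 stood at 1.51, 0.753, 1.04 and 1.30 CPM in knockouts 1 to 4 and at 0.422, 0.563, 0.421 and 0.518 CPM in controls 1 to 4 (log2 fold change 1.25 ± 0.36 SE, adjusted p = 0.0463 by edgeR). Kcng2 was never called when any 1 of the 8 libraries was dropped (adjusted p up to 0.124), and its exons share 272 bases with an opposite-strand transcript in GENCODE M21.

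Kcnh1 encodes the ether-a-go-go channel EAG1, which is known from brain and from tumour cells. It stood at 0.540, 0.695, 1.27 and 1.01 CPM in knockouts 1 to 4 and at 6.32, 2.03, 2.89 and 2.40 CPM in controls 1 to 4. All knockouts were lower than all controls and control 1 was far above the rest (log2 fold change -1.95 ± 0.44 SE, adjusted p = 0.0190 by edgeR). Without control 1 the log2 fold change was -1.47 (adjusted p = 0.0319), and the call was lost without knockout 2 (0.0593) or knockout 4 (0.0531). Neutrophil markers, of which 5 of 5 fell, summed to 5.47 to 15.2 CPM in knockouts, against 162 CPM in control 1 and 26.3 to 49.5 CPM in controls 2 to 4. Their part in this result was not tested.

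Kcnf1, another silent subunit, named after its values were seen, had no overlap between groups (log2 fold change 1.01, edgeR adjusted p = 0.0604).

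Of 8 genes in the class of channels opened by calcium or sodium, 3 rose and none fell. Kcnu1, 1 of the 3, was placed in this class by its symbol alone. Kcnt1 encodes Slack, a channel opened by sodium inside the cell. It stood at 5.43, 6.28, 3.05 and 6.46 CPM in knockouts 1 to 4 and at 0.169, 1.19, 0.702 and 0.551 CPM in controls 1 to 4. The lowest knockout exceeded the highest control, and the level was 8.12-fold that of controls (log2 fold change 3.02 ± 0.49 SE, adjusted p = 0.00505 by edgeR).

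Kcnn1 encodes SK1, a small-conductance calcium-activated channel. It stood at 11.4, 8.74, 5.98 and 10.5 CPM in knockouts 1 to 4 and at 2.75, 4.72, 1.60 and 2.53 CPM in controls 1 to 4. The groups did not overlap (log2 fold change 1.66 ± 0.34 SE, adjusted p = 0.0123 by edgeR). Exons of Kcnn1 share 132 bases with an opposite-strand transcript in GENCODE M21. Kcnu1 encodes the sperm channel Slo3. Kcnu1 had 16, 18, 23 and 14 counts in knockouts 1 to 4 and 7, 7, 2 and 3 counts in controls 1 to 4 (log2 fold change 1.90 ± 0.50 SE, adjusted p = 0.0342 by edgeR). It kept its call in 4 of 14 alternative settings. Kcnu1 met the total for members mainly through its knockout counts, so its membership is not independent of its direction.

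Kcnma1 encodes the pore of the BK channel, which secretes potassium at high urine flow. Its level was 1.84 ± 0.409 CPM in knockouts and 1.38 ± 0.340 CPM in controls (SD, n = 4 each), with 1.48 to 2.25 CPM in knockouts and 1.01 to 1.81 CPM in controls. The groups overlapped (log2 fold change 0.41 ± 0.31 SE, adjusted p = 0.414 by edgeR). Kcnmb1, the beta subunit of BK in smooth muscle, averaged 2.48 ± 0.906 CPM in knockouts and 1.45 ± 0.470 CPM in controls and did not pass either (edgeR adjusted p = 0.182). Exons of Kcnma1 share 1016 bases with a non-coding transcript of the opposite strand in GENCODE M21, as Kcnj15 and Kcnk1 do over 333 and 179 bases.

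Kcnn4 encodes KCa3.1, which is known from red cells, lymphocytes and macrophages. It stood at 2.02, 1.77, 1.75 and 1.99 CPM in knockouts 1 to 4 and at 6.89, 3.79, 1.97 and 2.98 CPM in controls 1 to 4. The highest knockout exceeded the lowest control, control 3, and control 1 was the highest (log2 fold change -1.06 ± 0.36 SE, adjusted p = 0.0846 by edgeR; -0.63 without control 1). Other channels described in macrophages or microglia did not pass: Kcnk6 averaged 2.56 ± 0.212 CPM in knockouts and 3.34 ± 1.95 CPM in controls, with control 1 at 6.21 CPM, and Kcnk13 averaged 0.799 ± 0.375 and 0.651 ± 0.461 CPM in the same order (SD, n = 4 each). Kcna3, the voltage-gated channel of lymphocytes and macrophages, had 19 counts in total and is not a member. Kcnk6, Kcnk13 and Kcna3 were named after their values were seen. The 6 markers of macrophages and monocytes summed to 124 to 232 CPM in knockouts and 132 to 205 CPM in controls, and edgeR called 1 of them as lower and none as higher.

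Of 11 accessory subunits and regulators, Kcne1, described above, and Kcne4 rose and none fell. Kcne4, which encodes a subunit that inhibits several voltage-gated channels, stood at 6.23, 3.01, 5.33 and 3.35 CPM in knockouts 1 to 4 and at 1.80, 2.97, 1.49 and 1.85 CPM in controls 1 to 4. Knockout 2 was barely above control 2 (log2 fold change 1.14 ± 0.33 SE, adjusted p = 0.0454 by edgeR), and the call was lost in 6 of 8 fits with 1 library dropped, those without knockout 1, 3 or 4 or without control 1, 3 or 4 (adjusted p up to 0.116). The other 9 had log2 fold changes from -0.77 (Kcnrg, a regulator that binds Kv subunits) to 1.45 (Kcne1l, now named Kcne5). Kcnab3 and Kcnrg had no overlap between groups, higher and lower in the knockout (edgeR adjusted p = 0.0727 and 0.224).

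Other genes of potassium handling were counted over whole lists, called or not. Over all genes tested 6.45% were called higher and 6.28% lower. In lists this short, 1 or 2 calls say little about the list. Among 14 measured sodium and proton pump genes 2 rose and none fell. One of them was Atp4a, a catalytic subunit of the potassium-proton pump, at 48.1 ± 5.36 CPM in knockouts and 13.0 ± 9.69 CPM in controls (edgeR adjusted p = 0.0310). No gene of this list was called higher without knockout 2, 3 or 4 or without control 3. Of 7 cation-chloride cotransporters 3 rose and 1 fell. Slc12a1, which encodes NKCC2 and is also one of the thick ascending limb markers, rose 5.39-fold, Slc12a5, which encodes KCC2, 7.74-fold, and Slc12a3, the thiazide-sensitive cotransporter, 1.98-fold. Slc12a4 fell, a call lost in 6 of 8 fits with 1 library dropped.

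The ratio of Kcnj1 to Slc12a1 per kb was 0.725, 0.527, 0.465 and 0.463 in knockouts 1 to 4 and 1.32, 0.985, 1.00 and 0.964 in controls 1 to 4. Both genes rose, and the ratio of the recycling channel to the cotransporter was lower in every knockout than in every control. This ratio was chosen after the values were seen and was not tested.

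Of 15 genes of the WNK pathway and of distal potassium secretion, 8 rose and 1 fell, with a median log2 fold change of 0.80. Scnn1b and Scnn1g, among those that rose, are also principal cell markers counted above. Scnn1a, the alpha subunit of the epithelial sodium channel, stood at 255 ± 21.4 CPM in knockouts and 82.1 ± 17.1 CPM in controls (3.10-fold, edgeR adjusted p = 5.80e-04). The kinase gene Wnk1 rose 1.86-fold (adjusted p = 0.00250) and Klhl3, the adaptor that marks WNK kinases for degradation, 3.51-fold (adjusted p = 0.00337). The gene that fell was the WNK target kinase Oxsr1, whose call was lost in 7 of 8 fits with 1 library dropped. Of 4 genes for chloride exit, 3 rose and 1 fell. Bsnd, which encodes barttin, a subunit of chloride channels of the distal nephron, rose 3.75-fold. Cftr fell 2.47-fold, a call lost in 5 of 8 such fits. Its groups overlapped, with knockout 3 at 9.76 CPM and control 2 at 9.32 CPM.

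Of 5 measured partner subunits not named Kcn, 1 rose: Lrrc52, a partner of Slo3, stood at 1.74 ± 0.575 CPM in knockouts and 0.406 ± 0.384 CPM in controls (edgeR adjusted p = 0.0436), and lost its call in 6 of the 8 fits. Abcc9, which encodes the sulphonylurea receptor that pairs with the Kcnj8 product, had no overlap between groups and did not pass (log2 fold change 1.33, edgeR adjusted p = 0.0656). The 2 measured HCN channel genes missed the threshold, Hcn2 at a log2 fold change of -0.25 and Hcn3 at -0.59; edgeR called 0 of 2, with 1 at an unadjusted p under 0.05, and DESeq2 called 0.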

How the data were processed

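Kidney RNA-seq counts per gene were analysed for 4 knockout and 4 control libraries. The authors deposited 1 table of raw counts, whole numbers with no normalization, with a gene length column. Salmon 1.10.2, HISAT2 2.2.1, Trim Galore 0.6.2 and FastQC, and the build mm39, are listed in the submitters' processing notes without roles; annotation and filters: not given in the sources used here. Genes were taken by symbol, since 0 of 43 known Ensembl identifiers beside members belonged to the same symbol. Among values from 1 to 20, 68.7% to 70.9% were even in each library, against 49.5% to 50.4% of values over 100; counting each mate of a read pair on its own would give such an excess, and intervals from counts would then be too narrow.

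Differences were tested with edgeR 4.0.16 under R 4.3.3 (filterByExpr with its minimum count of 10, TMM, quasi-likelihood fit of knockout against control over 8 libraries, no covariate), with Benjamini-Hochberg adjustment over 15000 genes and a threshold of 0.05. It was tested on simulated data. CPM are counts scaled by library size with TMM factors, and SE derive from the F statistic. Alternatives were DESeq2 1.42.0, other scalings, no filter, halved counts, a replicate block and left-out libraries.

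The text gives values for every called member, for 11 kidney channels given whether called or not, and for the 3 most abundant members per length that were not called, 19 genes in all, and for up to 3 genes of each other potassium list with the smallest p; some of these genes are not reported here. Members and lists were chosen with earlier results of these data known. Promoters cover 250 bases before the start; motifs were searched as exact letters on both strands. No coordinates other than those of the promoters are given, since the annotation at hand is not of mm39.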

Additional observations from a re-analysis of the deposited data

Results flagged for a closer look

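Within the 4 libraries of each group, the values of the 19 genes the rule names were examined for 1 library far from the others, 38 groups in all, of which chance flags about 1 in 20. Kcnq1 stood at 51.0 CPM in knockout 1, against 44.2 to 44.7 CPM in the other 3 knockouts, a gap of 0.928 of the whole range. Kcnk5 stood at 90.1 CPM in knockout 3, against 70.6 to 73.6 CPM in the other 3 knockouts, a gap of 0.849 of the range. Both libraries lay on the knockout side of every control.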

How the results depend on the processing

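The count of all genes called was 1909, and it was 3009 in DESeq2, 865 with a replicate block, 1045 without control 1 and knockout 3 together, and 907 (without knockout 4) to 1984 (without control 2) when 1 library was left out. Members that rose numbered 12, against 21 in DESeq2, 9 with the replicate block and 8 to 11 with 1 library left out. Members that fell numbered 2, against 0 with the replicate block and 0 to 3 with 1 library left out. DESeq2 called all 14 of these members and 10 more, among them Kcnf1 and Kcnn4. Replicate numbers gave no sign of pairing the libraries, though the check cannot show that they were unpaired. Deviations from the group means correlated at -0.20, 0.04, 0.15 and -0.16 for numbers 1 to 4 across genes. For libraries of unlike number these correlations ran from -0.33 to 0.35. The block is therefore only an alternative setting. Under it Kcnj16, Kcne4, Kcng2, Kcnu1, Kcnk5 and Kcnh1 were not called.

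Calls of Kcna1, Kcnj1, Kcnq1, Kcnt1, Kcnj10, Kcns1, Kcnn1 and Kcne1 held in every alternative that gave them a value; Kcns1 and Kcnu1 were filtered out when counts were halved and rounded. The call of Kcnj16 held in 8 of 15 and that of Kcng2 in 4 of 15. Kcnj15, not called anywhere, changed sign without knockout 1 (0.10), knockout 4 (0.0057), control 3 (0.03) or control 4 (0.02), and ran from -0.21 to 0.10 with 1 library left out. For the 19 genes the rule names, 228 of 283 alternative values stayed on the same side of the threshold with the same sign. Scaling by RLE or by library totals moved the median of all genes by 0.01 and 0.02 on the log2 scale. The low counts of Kcna1, Kcns1 and Kcnu1 limit the precision of their fold changes.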

Other observations

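Knockout 1 and control 1 held the highest or the lowest value of their groups in several channel genes. For each gene some library of a group must be the highest and some the lowest, so such extremes are common. Knockout 1 had the highest levels of Kcnj16 (402 CPM), Kcnj1 (303 CPM), Kcna1 (15.6 CPM) and Kcne1 (46.9 CPM) and the lowest of Kcnj15 (388 CPM) and Kcnj10 (120 CPM) among knockouts. In the same library principal cell markers summed to 2074 CPM, against 1156 to 1363 CPM in the other knockouts, and proximal tubule markers to 4536 CPM, against 5709 to 6396 CPM.

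Control 1 had the lowest levels of Kcnj1 (68.7 CPM), Kcnj10 (25.3 CPM), Kcnt1 (0.169 CPM) and Kcne1 (9.11 CPM) and the highest of Kcnh1 (6.32 CPM), Kcnn4 (6.89 CPM) and Kcnk6 (6.21 CPM) among controls. Its proximal tubule markers summed to 1888 CPM, where controls 2 to 4 held 2865 to 5464 CPM, and its injured tubule markers to 5619 CPM, against 3219 to 5010 CPM. These values were picked after they were seen, and none was tested.

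Kcnj16 and Kcnj2, neighbours on chromosome 11, had log2 fold changes of 0.44 (SE 0.11) and -0.45 (SE 0.27), and Kcnj5 and Kcnj1, neighbours on chromosome 9, had 0.99 (SE 0.42) and 1.48 (SE 0.19). Differences between neighbours were not tested.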
